A study of Mus musculus with 4 samples.

Results

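Apolipoproteins are the protein components of the lipid particles that the liver releases into blood. The 10 genes described here, Apoa1, Apoa2, Apoa4, Apoa5, Apob, Apoc1, Apoc2, Apoc3, Apoe and Apoh, were chosen by gene symbol as a family made by hepatocytes. Of the 10, 9 had an entry of their own symbol among 27027 entries in the count table. The remaining gene, Apoc2, was counted only in a joint entry with the overlapping gene Gm44805, and this entry (Apoc2/Gm44805) is described separately and kept out of the counts of the 9.

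The data are liver 3′mRNA profiles from a mouse model of acute liver injury by acetaminophen (APAP), a drug that kills hepatocytes at overdose. Male C57BL/6 mice (C57BL/6J in the study's methods), 9 to 12 weeks old and fasted for 10 h, received either NaCl solution (control) or APAP at 300 mg/kg by intraperitoneal injection. All mice were of this strain and no allele was altered. Hepatic RNA was pooled in equal shares by condition, giving control pools of 6 mice at 24 h and 6 mice at 48 h, and APAP pools of 7 mice at 24 h and 7 mice at 48 h. Each pool was sequenced as 1 library. Differences between mice therefore cannot be seen, APAP and control could not be tested within a time point, and no p-value is given. A test that takes the time points as replicates of a treatment was not run. In RNA of whole liver, fewer cells of a type and less RNA per cell cannot be told apart.

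Hepatocytes load lipid onto the large scaffold protein ApoB to make very-low-density lipoprotein (VLDL), and secrete ApoA1, around which high-density lipoprotein (HDL) forms. Smaller exchangeable apolipoproteins move between particles and set their fate. ApoC2 and ApoA5 favour the lipolysis of triglyceride by lipoprotein lipase, ApoC1 and ApoC3 restrain it, and ApoE is the ligand by which remnants are taken up by hepatocytes.

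MACE (massive analysis of cDNA ends) reads the 3′ end of each polyadenylated transcript, so that a count is not divided by transcript length and levels of different genes can be set side by side as RPM, the count of a gene scaled to the library total. Between 4859661 and 5698778 reads were counted on genes per library. Folds are ratios of normalized counts (counts divided by a median-of-ratios size factor), given with their 95% exact counting interval, which covers counting error only. Genes called higher or lower had a fold of 1.5 or more in that direction, and for all others the fold is given as a value. Scaling to library totals in place of size factors raised the median log2 fold of all tested genes by 0.19 at 24 h and 0.27 at 48 h. The libraries carried hepatocyte markers at 96885 to 120794 RPM in sum, Alb among them. The control pools were not alike in all genes, as 12.2% of 10066 tested genes, and 6.58% of the 562 abundant genes (mean normalized count 1000 or more), differed at least 1.5-fold between control 48 h and control 24 h. The acute-phase gene Saa3 stood at 306 RPM in control 24 h and at 29.8 to 34.2 RPM in the other 3 pools.

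Together the 9 genes supplied a similar share of the reads of each library, 6.34% in control 24 h, 6.53% in control 48 h, 6.37% in APAP 24 h and 6.29% in APAP 48 h. With the size factors used for the folds, their summed normalized counts were 350396, 363419, 309044 and 291021 in the same order, so that both APAP pools were below both control pools on that scale. Within the family the make-up shifted. Apoa4 was higher after APAP at both time points. Apoa2 was lower at 48 h, though not with library totals, where its fold was 0.742. The remaining genes of the 9 stayed within 1.5-fold of their control pool. The separate entry Apoc2/Gm44805 was 1.61-fold higher at 48 h.

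**Figure D1:**
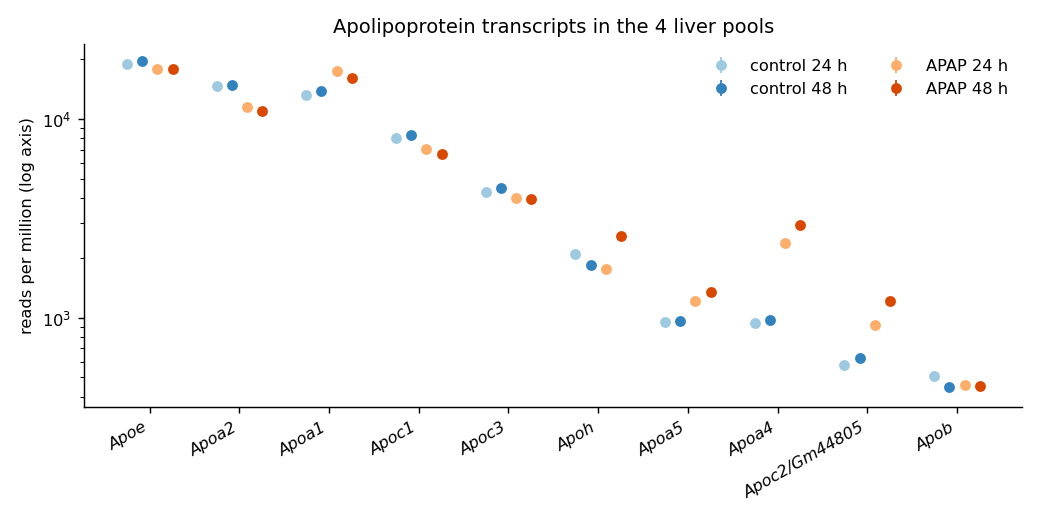
Level of each apolipoprotein gene (RPM, log axis) in the 4 liver pools, 1 point per pool, with 95% counting intervals that are mostly smaller than the points. Apoe led in every pool, at 17829 to 19545 RPM, and Apoa4 stood at 944 and 977 RPM in the control pools, below its 2381 and 2926 RPM after APAP.

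In control liver the levels spanned from Apob to Apoe. In control 24 h the order was Apoe (18806 RPM), Apoa2 (14655), Apoa1 (13156), Apoc1 (8053), Apoc3 (4272), Apoh (2083), Apoa5 (947), Apoa4 (944) and Apob (508). The counting intervals of Apoa5 and Apoa4 overlapped in both control pools, while those of all other neighbours in this order were separate. Apoe was the second most abundant transcript of the whole library in all 4 pools. Apoa1 moved from rank 8 in both control pools to rank 3 in both APAP pools, and Apoa2 from ranks 5 and 4 to ranks 10 and 13.

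At 24 h, 1 of the 9 genes was higher after APAP by the 1.5-fold limit (Apoa4) and 0 were lower. Over all tested genes the shares were 11.5% higher and 13.3% lower, and among abundant genes they were 5.16% and 24.4%. At 48 h, 1 gene was higher (Apoa4) and 1 was lower (Apoa2), beside 10.6% and 13.6% of all tested genes and 5.34% and 32.6% of the abundant ones. Across the 9 genes the log2 folds centred on a median of -0.28 (24 h) and -0.25 (48 h), against -0.22 and -0.31 for the abundant genes and -0.00 and -0.03 for all tested genes. None of the 9 differed by 1.5-fold between the control pools, where their folds ran from 0.887 (Apob) to 1.06 (Apoa1 and Apoc3).

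**Figure D2:**
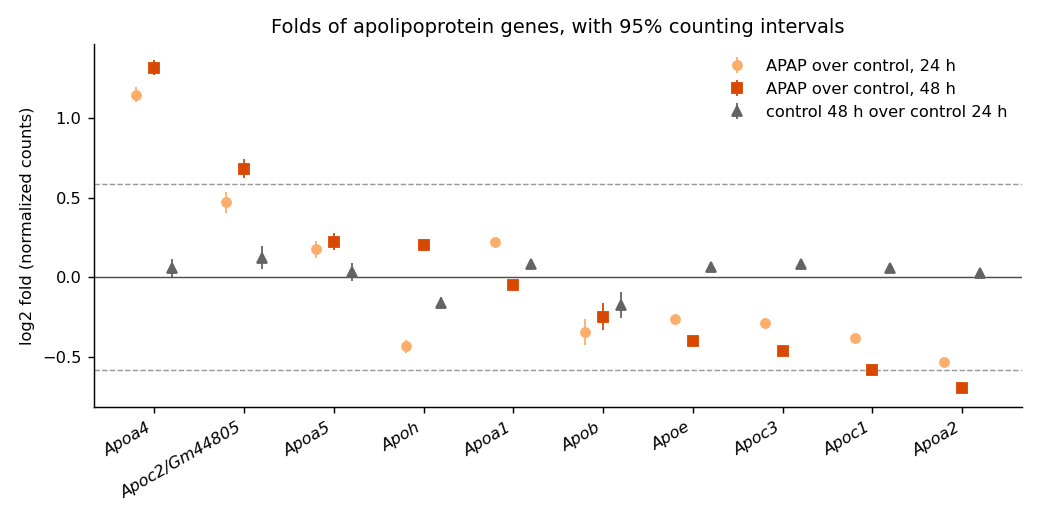
Log2 fold of each gene for APAP over control at 24 h (circles) and 48 h (squares) and for control 48 h over control 24 h (triangles), with 95% counting intervals and dashed lines at 1.5-fold. Apoa4 lay above the upper line at both time points (2.22-fold and 2.49-fold), while the control comparison stayed between the lines for every gene.

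Apoa1 encodes the main protein of HDL and an activator of the enzyme LCAT. It had 63935 counts in control 24 h, 71874 in control 48 h, 99563 in APAP 24 h and 79570 in APAP 48 h. At 24 h its fold was 1.17 (1.16 to 1.18) and at 48 h it was 0.968 (0.958 to 0.978), and the latter became 1.16 with library totals and 1.03 against the other control pool. The control pools differed by 1.06-fold. Apoa1 thus stayed well within 1.5-fold, and its direction at 48 h depended on the scaling.

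Apoa2, the second major HDL protein, had 71217 and 76976 counts in control 24 h and control 48 h, and 65617 and 54342 in APAP 24 h and APAP 48 h. Both APAP pools were below both control pools. At 24 h its fold was 0.690 (0.683 to 0.698), and at 48 h its level was 1.62 times lower (1.602 to 1.638), beside a difference of 1.02-fold between the control pools. With library totals its fold at 48 h was 0.742, which no longer passes 1.5-fold. Folds of this size were common among abundant transcripts, since 26.7% of them at 24 h and 25.6% at 48 h had a fold at least as low.

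The balance between the transcripts of these HDL proteins can be read without any scaling, from counts within 1 library. The proteins on HDL particles were not measured. The Apoa1 to Apoa2 ratio was 0.898 in control 24 h, 0.934 in control 48 h, 1.52 in APAP 24 h and 1.46 in APAP 48 h. Apoa2 reads outnumbered Apoa1 reads in both control pools, and the reverse held in both APAP pools. The ratio was 1.69 times as high as in the control pool at 24 h and 1.57 times at 48 h, whereas the control pools differed by 1.04-fold.

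**Figure D3:**
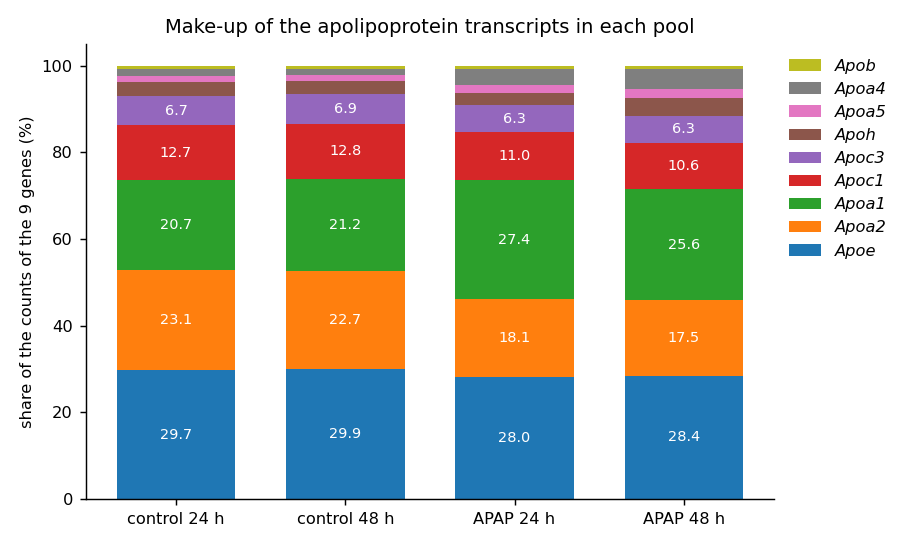
Share of each gene (percent, stacked bars) in the summed counts of the 9 apolipoprotein genes in each of the 4 pools. Apoa1 took 20.7% and 21.2% in the control pools, then 27.4% and 25.6% after APAP, Apoa2 took 23.1% and 22.7%, then 18.1% and 17.5%, and Apoa4 went from 1.489% and 1.496% to 3.74% and 4.66%.

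Apoa4 encodes an apolipoprotein of triglyceride-rich particles and HDL, made mainly by the intestine and in mice also by the liver. It had 4588 counts in control 24 h, 5071 in control 48 h, 13571 in APAP 24 h and 14450 in APAP 48 h. Both APAP pools were above both control pools. At 24 h its fold was 2.22 (2.14 to 2.29) and at 48 h it was 2.49 (2.41 to 2.57), beside 1.04 between the control pools. Library totals gave 2.522 and 2.996. Few abundant transcripts were raised by this much. Among abundant genes 2.49% rose at least as far at 24 h and 1.78% at 48 h. Apoa4 climbed from ranks 129 and 122 in the control pools to ranks 67 and 47. The fold at 48 h was 1.12 times that at 24 h (1.07 to 1.18).

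Because Apoa4 is also an intestinal gene, 12 markers of intestinal epithelium were read in the same libraries, of which 10 had an entry. Of these, Cdx1 and Fabp6 were at 0 counts in all 4 pools, and Cdx2 and Sis had at most 1 count in any pool. Vil1 had 2 counts in control 24 h, 3 in control 48 h, 0 in APAP 24 h and 1 in APAP 48 h. Lct had 0 counts in both control pools and 5 in each APAP pool, and Cdh17 had 0 in both control pools, 1 in APAP 24 h and 3 in APAP 48 h. These counts are at or near the floor. Lgals4 was above the floor but too low to be tested, with 11 counts in control 24 h, 12 in control 48 h, 14 in APAP 24 h and 8 in APAP 48 h. Of the 2 markers tested, Tff3 was 2.55-fold higher at 24 h with a fold of 0.868 at 48 h. The control pools differed by 2.44-fold in Tff3. Fabp2 had a fold of 0.864 at 24 h and was 1.68 times lower at 48 h, where it stood at 67.8 RPM in control and 48.6 RPM after APAP. Summed over the list the controls had 118 and 176 RPM and the APAP pools 200 and 163 RPM, nearly all of it from Fabp2 and Tff3. Against the single-pool floor of 3 counts, Cdx1 and Fabp6 were below 0.526 to 0.617 RPM.

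Apoa5, an activator of lipolysis by lipoprotein lipase, had 4601, 4995, 6941 and 6672 counts in control 24 h, control 48 h, APAP 24 h and APAP 48 h. Its folds of 1.13 (1.09 to 1.17) and 1.17 (1.13 to 1.21) did not reach 1.5. Apoa4 and Apoa5 were level in control liver, at a count ratio of 0.997 in control 24 h and 1.02 in control 48 h. In the APAP pools Apoa4 had 1.955 and 2.166 times the reads of Apoa5.

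Apoa1, Apoc3, Apoa4 and Apoa5 lie next to each other within 43.3 kb on chromosome 9 (chr9:46228580-46271919 in GRCm38), Apoc3 on the minus strand and the others on the plus strand. Within this cluster Apoc3 was below its control pool and Apoa4 above it at both time points. Bases just before the annotated start of Apoa1, Apoa4, Apoa5 and Apoa2 are printed here from RefSeq (GRCm38.p6, plus strand). Apoa2 is an HDL gene outside the cluster, and the cluster gene Apoc3 had no window. The printed stretches differ in length, from 102 bases (Apoa4) to 250 (Apoa2). Their part in the levels was not tested. Capitals mark a match to CAAAGTNCA, a motif of the kind bound by the hepatocyte factor HNF4, or to TATAA. The windows are chr9:46228380-46228579 for Apoa1, chr9:46240594-46240695 for Apoa4, chr9:46268383-46268607 for Apoa5 and chr1:171224804-171225053 for Apoa2.
Apoa1: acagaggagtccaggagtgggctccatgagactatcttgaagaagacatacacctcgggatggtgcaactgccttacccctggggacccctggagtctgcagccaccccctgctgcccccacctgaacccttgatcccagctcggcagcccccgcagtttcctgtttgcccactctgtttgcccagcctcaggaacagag
Apoa4: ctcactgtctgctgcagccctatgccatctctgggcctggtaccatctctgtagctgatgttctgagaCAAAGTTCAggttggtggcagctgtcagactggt
Apoa5: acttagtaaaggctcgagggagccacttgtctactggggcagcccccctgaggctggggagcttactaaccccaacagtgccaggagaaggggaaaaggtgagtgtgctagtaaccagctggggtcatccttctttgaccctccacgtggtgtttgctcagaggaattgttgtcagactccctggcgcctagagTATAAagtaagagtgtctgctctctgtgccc
Apoa2: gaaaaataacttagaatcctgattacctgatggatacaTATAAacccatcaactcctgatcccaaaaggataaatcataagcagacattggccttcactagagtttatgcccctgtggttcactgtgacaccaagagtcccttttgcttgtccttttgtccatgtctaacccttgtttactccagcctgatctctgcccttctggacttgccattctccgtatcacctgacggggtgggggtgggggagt
The letters CAAAGTNCA occurred on either strand in 1.41% of 32851 promoter windows, and in 1 of the 12 windows of the listed genes, that of Apoa4. The motif TATAA occurred in 24.9% of windows and in 5 of the 12, from Apoa2, Apoa5, Apob and Apoe. AGGTCA, the half-site of nuclear receptors, occurred in 16.3% of windows and in 3 of the 12, from Apoa2, Apoc2 and Apoh. These counts used every window of a gene at its whole length, so a match can lie outside the printed bases. Windows were found for 8 of the 10 genes, not for Apoc1 and Apoc3. A match describes the letters in a window and is no evidence that a factor binds.

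**Figure D4:**
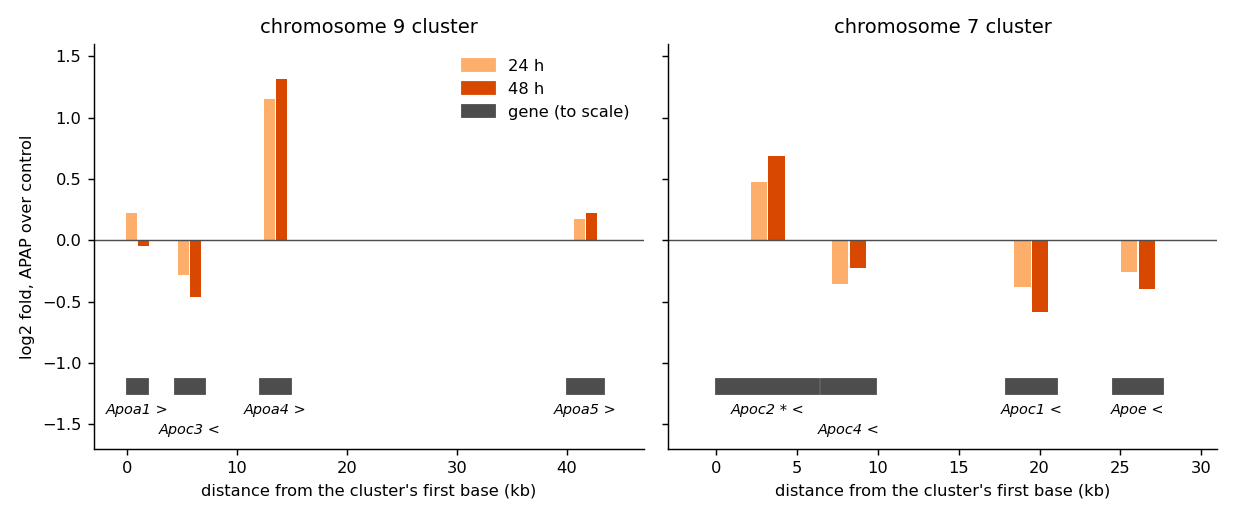
Log2 fold (APAP over control, 24 h and 48 h) of neighbouring genes in the chromosome 9 and chromosome 7 clusters, placed by distance in kb from the first base of each cluster. Grey boxes are genes to scale, > and < give the strand, and the asterisk marks the joint Apoc2/Gm44805 entry. Apoa4 and Apoc2/Gm44805 point up beside Apoc3, Apoc4 and Apoc1, which point down under the size factors used.

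Apob (chr12:7977648-8016835), the scaffold of VLDL and chylomicrons, had 2469, 2323, 2597 and 2237 counts in control 24 h, control 48 h, APAP 24 h and APAP 48 h. At 24 h its fold was 0.788 (0.746 to 0.833) and at 48 h it was 0.842 (0.794 to 0.893), while the control pools differed by 0.887-fold. At 48 h library totals gave 1.01. The interval at 48 h held the fold between the control pools, and the direction changed with the scaling.

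Apoc1 and Apoc3 are small inhibitors of lipoprotein lipase and of remnant uptake. Apoc1 had 39135 and 43261 counts in the control pools at 24 h and 48 h, and 40026 and 32995 in the APAP pools. Its fold was 0.766 (0.756 to 0.777) at 24 h, then 0.667 (0.657 to 0.677) at 48 h, a ratio of 1.499 for control over APAP that is just short of the limit and so not counted. Apoc3 had 20760, 23372, 22747 and 19421 counts in the same order, with folds of 0.821 (0.806 to 0.837) at 24 h, then 0.727 (0.713 to 0.741) at 48 h. For both genes the normalized level of each APAP pool was below that of either control pool, and the control pools differed by 1.04-fold and 1.06-fold. Library totals left both below 1, at 0.872 and 0.802 for Apoc1 and 0.934 and 0.874 for Apoc3.

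Apoc2/Gm44805, the entry that holds the cofactor of lipoprotein lipase, had 2811 counts in control 24 h, 3247 in control 48 h, 5204 in APAP 24 h and 5964 in APAP 48 h. At 24 h its fold was 1.39 (1.32 to 1.45) and at 48 h it was 1.61 (1.54 to 1.68), with 1.09 between the control pools. With the size factors it thus passed the 1.5-fold limit at 48 h and not at 24 h. Library totals gave 1.58 and 1.93. The last 300 bases of Apoc2 are identical to those of Gm44805 on the same strand, so reads from either gene fall in this entry and cannot be told apart. Within libraries, the ratio of this cofactor entry to the inhibitor Apoc3 was 0.135 in control 24 h, 0.139 in control 48 h, 0.229 in APAP 24 h and 0.307 in APAP 48 h. Relative to Apoc1 it was 0.0718 and 0.0751 in the control pools, then 0.130 and 0.181. Both ratios were higher in each APAP pool than in either control pool.

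Apoe, the receptor ligand of remnants, is made by hepatocytes and by macrophages. It had 91389 and 101478 counts in control 24 h and control 48 h, and 101770 and 88044 in APAP 24 h and APAP 48 h. At 24 h its fold was 0.834 (0.827 to 0.842) and at 48 h it was 0.759 (0.752 to 0.766), with 1.05 between the control pools. Its normalized level in each APAP pool was below that in either control pool. Library totals brought the folds to 0.950 and 0.912. Apoe thus did not reach 1.5-fold. Of 11 tested markers of macrophages and monocytes, 6 were higher and 1 lower at 24 h, beside 11.5% and 13.3% of all tested genes. At 48 h, 8 were higher and 0 lower, beside 10.6% and 13.6%. The listed markers summed to 202 RPM in control 24 h, 209 in control 48 h, 322 in APAP 24 h and 545 in APAP 48 h. None of these 14 markers was at 0 throughout. Their part in the Apoe level was not tested.

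Apoe, Apoc1, Apoc4 and Apoc2 share a cluster of 27.6 kb on chromosome 7 (chr7:19671579-19699188), all on the minus strand. The Apoe to Apoc1 ratio was 2.34 and 2.35 in control liver, then 2.54 and 2.67 after APAP, a smaller shift than that of Apoa1 to Apoa2. Apoc4, a minor VLDL protein whose entry also takes in reads assigned to either it or Gm44805, had folds of 0.781 and 0.857, though with library totals its level at 48 h was 2331 RPM after APAP and 2263 RPM in control. Its neighbour Apoc2/Gm44805 was above 1 at both time points under either scaling.

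Apoh (chr11:108343354-108414396) encodes β2-glycoprotein I, a plasma protein that binds anionic phospholipid. It had 10124 counts in control 24 h, 9600 in control 48 h, 10009 in APAP 24 h and 12658 in APAP 48 h. After normalization APAP 24 h was the lowest and APAP 48 h the highest of the 4 pools. At 24 h the fold was 0.741 (0.720 to 0.762) and at 48 h it was 1.15 (1.12 to 1.18), and neither passed 1.5. The fold at 48 h was 1.56 times that at 24 h (1.498 to 1.618), the widest gap between time points among the 9 genes. The level in APAP 48 h over that in APAP 24 h was 1.39, and the same ratio of the control pools was 0.894. Library totals gave 0.843 and 1.39, and the other control pool gave 0.828 and 1.03.

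**Figure D5:**
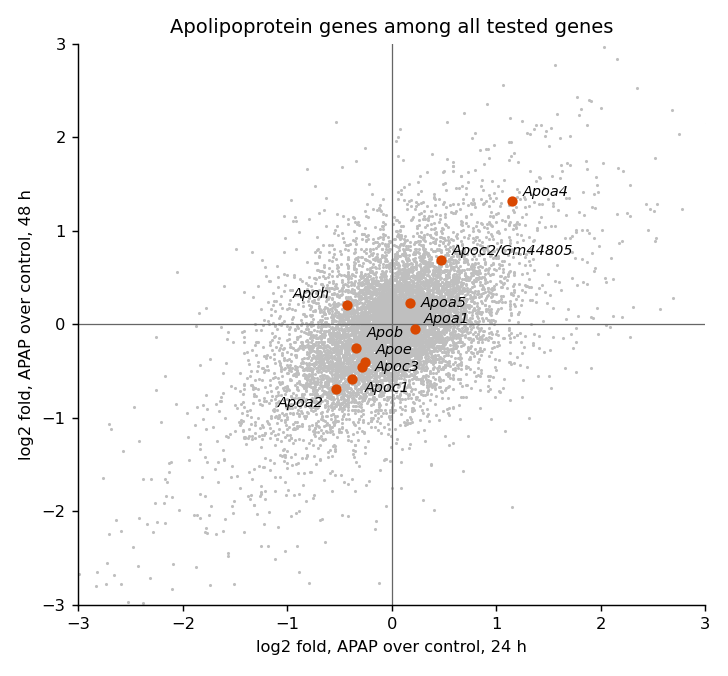
Log2 fold at 24 h (x axis) against log2 fold at 48 h (y axis) for the 10066 tested genes (grey) and the apolipoprotein entries (orange). Of the tested genes, 92 lie outside the plotted range, and Apoa4 and Apoc2/Gm44805 are in the upper right while Apoh is at the upper left of the origin.

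Other genes of lipoprotein biology were read from lists in the same libraries. Over all tested genes 11.5% were higher and 13.3% lower at 24 h, and 10.6% and 13.6% at 48 h. Of 10 tested other apolipoproteins, 0 were higher and 3 lower at 24 h (Apol7a, Apol9a and Apol9b), and 0 passed in either direction at 48 h. Clu had folds of 1.01 and 1.20, and Apom, an HDL protein that carries sphingosine-1-phosphate, had folds of 0.805 and 0.834. For particle assembly and secretion, 1 of 15 tested genes was higher (Plin2, 1.58-fold) and 5 were lower at 24 h. At 48 h, 1 was higher (Mia3, 1.65-fold) and 4 were lower. Plin2 was among those lower at 48 h, at 1.72 times. Mttp, the transfer protein that lipidates ApoB, had folds of 0.673 and 0.751. Dgat2, which makes triglyceride, was 1.75 times lower and then 1.501 times lower. Sar1b, a GTPase of the secretory coat, was 1.87 and 1.73 times lower. With library totals at 48 h, Dgat2 stood at 362 RPM in control and 290 after APAP, and Sar1b at 158 and 110. Plin2 stood at 232 and 162 RPM. None of these differences at 48 h passes 1.5-fold on that scale.

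Among 16 tested HDL partners, 0 were higher and 7 lower at 24 h, beside 11.5% and 13.3% of all tested genes. At 48 h, 1 was higher and 7 were lower, beside 10.6% and 13.6%. Pon1, the HDL-bound paraoxonase, went from 2122 and 2674 counts in the control pools to 1406 and 1576, which was 2.01 and 1.94 times lower. Lipc, hepatic lipase, was 1.80 and 1.97 times lower, and Gpld1 was 1.71 and 1.59 times lower. With library totals Gpld1 no longer passes 1.5-fold at 48 h, at 143 RPM in control and 108 RPM after APAP. Pltp, the phospholipid transfer protein, and the acute-phase HDL proteins Saa1 and Saa2 were also lower at both time points against their same-time control. However, their control pools differed by 2.28-fold, 0.564-fold and 0.360-fold. Saa1 in APAP 24 h stood at 2666 RPM, below control 24 h (3866) but above control 48 h (2162). Saa2 in APAP 24 h stood at 2808.5 RPM, between control 24 h (4225) and control 48 h (1510). Saa3 was also among the 7 lower at 24 h, with 306 RPM in control 24 h, 32.4 in control 48 h and 34.2 in APAP 24 h. The calls of these Saa genes at 24 h thus depended on the control pool used. Lcat, the enzyme that ApoA1 activates, had folds of 0.948 and 1.11.

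Among 14 tested genes of lipolysis and uptake, 4 were higher and 5 lower at 24 h, beside 11.5% and 13.3% of all tested genes. At 48 h, 2 were higher and 4 lower, beside 10.6% and 13.6%. Lpl, lipoprotein lipase itself, had 71 counts in control 24 h, 108 in control 48 h, 155 in APAP 24 h and 326 in APAP 48 h, with folds of 1.64 (1.23 to 2.20) and 2.64 (2.12 to 3.31), and its control pools differed by 1.43-fold. Lsr, a receptor for remnants, was 2.65 and 2.30 times lower. Lrpap1, a chaperone of lipoprotein receptors, was 1.65 and 1.63 times lower. With library totals Lrpap1 does not pass 1.5-fold, at 37.2 RPM in control and 25.6 RPM after APAP at 24 h, and 46.0 and 34.0 RPM at 48 h. Angptl4, an inhibitor of lipoprotein lipase, was at 12.8 and 19.6 RPM in control liver and at 56.9 and 22.1 RPM after APAP, that is 3.92-fold higher at 24 h with a fold of 0.934 at 48 h. The control pools differed by 1.55-fold in Angptl4.

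Of 26 tested transcription factors known to act on apolipoprotein genes, 2 were higher and 5 lower at 24 h. At 48 h, 2 were higher and 4 lower. Over all tested genes the shares were 11.5% and 13.3% at 24 h, and 10.6% and 13.6% at 48 h. Foxa3 had 134 and 168 counts in control liver, then 378 and 334 after APAP, and was 2.11-fold and 1.74-fold higher. Cebpa was 1.78 and 1.57 times lower, whereas Cebpb was 2.06-fold higher at 24 h with a fold of 1.37 at 48 h. With library totals Cebpa no longer passes at 48 h (192 RPM in control, 147 after APAP), while Cebpb does (68.0 and 112 RPM). Mlxipl, the carbohydrate-responsive factor ChREBP, was 3.43 and 2.18 times lower. Hnf4a, a main activator of apolipoprotein genes, had folds of 1.17 and 0.942.

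Markers of liver zones and cell types were counted in the same libraries. The shares over all tested genes were 11.5% higher and 13.3% lower at 24 h, and 10.6% and 13.6% at 48 h. Of 11 tested markers of pericentral hepatocytes, 10 were lower and 0 higher at each time point, with median log2 folds of -2.11 and -2.03 and summed levels of 3763 and 4185 RPM in control liver against 1686 and 1505 RPM after APAP. Of 12 periportal markers, 1 was higher and 5 lower at 24 h, and 2 were higher and 2 lower at 48 h. Among 10 hepatocyte markers, 2 were higher (Fgb and Fgg) and 1 was lower (Ttr) at 24 h, and 0 passed at 48 h. Among 12 stellate and endothelial markers, 3 were higher and 1 lower at 24 h, and 5 were higher and 0 lower at 48 h. The part of these values in the apolipoprotein levels was not tested.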

How the data were processed

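Hepatic RNA pools of the 4 conditions, 1 MACE library each, were analysed. The authors removed duplicate reads by unique molecular identifiers, used cutadapt for low-quality bases, clipped poly(A)-tails, aligned to mm10 (GRCm38) and deposited raw counts per gene from HTSeq. Tool versions are not given in the sources used here. The deposited table also holds the authors' scaled values, log2 ratios, p-values and FDR values, and none of these was used.

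Size factors came from DESeq2 1.42.0 (median of ratios, 0.880 to 1.17) in R 4.3.3, with edgeR 4.0.16 (TMM) as an alternative, and neither tool's test was run. Folds and exact Clopper-Pearson intervals were computed in Python 3.11.15 with scipy 1.17.1. Tested genes had a mean of at least 20 normalized counts. The floor was 3 counts per library. The procedure was tested on simulated data. Alternatives were TMM, library totals, both control pools summed, the control pool of the other time, no filter, a mean of at least 1000 and a threshold of 2-fold.

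Positions came from GENCODE M21. The last 300 bases of transcripts were compared by blastn 2.17.0 (at least 95% identity over 100 bases), and no member other than Apoc2 shared its end. Promoter windows came from RefSeq. The printed ones were shortened to end before the annotated gene start, whereas motifs were counted over whole windows. The 92 pathway genes held 81 tested ones, and the 16 with at least 1.5-fold at both time points in 1 direction and a mean of at least 100 normalized counts met the rule for naming (2 higher, 14 lower), of which some are not reported here. Any others were named after their values were seen. The members and lists were chosen with earlier results of these data known. The listed genes Mia2, Tf, Alpi and Muc2 were not analysed here.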

Additional observations from a re-analysis of the deposited data

Results flagged for a closer look

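For Apoa1 and Apoh the folds at 24 h and 48 h lay on opposite sides of 1. Apoa1 stood at 1.17 at 24 h but 0.968 at 48 h, the latter above 1 with library totals. Apoh stood at 0.741 at 24 h but 1.15 at 48 h, and these stayed on opposite sides of 1 under each scaling and control pool tried. With 1 pool per condition, the difference between time points was not tested.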

How the results depend on the processing

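The counts of the 9 apolipoprotein genes higher at 24 h, higher at 48 h and lower at 24 h were the same under all 7 alternatives. The count lower at 48 h, 1 gene (Apoa2), became 0 with library totals and 0 with a threshold of 2-fold. The median log2 fold at 24 h was -0.098 with library totals, and at 48 h it was 0.018 with library totals and -0.33 with the sum of both control pools. Library totals and size factors differ by the scaling alone. The counts of the pathway and marker lists were made with size factors only and were not repeated under the alternatives. Several of their lower calls near 1.5-fold do not pass with library totals. The labels give no replicate numbers, and a fit that pairs APAP and control by time point was not run. Depth limits the low-count genes, whose floor of 3 counts is 0.526 to 0.617 RPM, more than the apolipoprotein genes, of which the lowest had 2237 counts. Spread between mice cannot be seen in pools and is not in any interval.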
